A study of Mus musculus with 12 samples.

Results

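Ras proteins are small GTPases that pass growth signals from the cell membrane to the nucleus, and 9 genes of this module were followed across mouse ocular lesions, control eyes and cerebellar tumors. They are the Ras GTPases *Hras*, *Nras* and *Rras2*, the exchange factors *Rasgrf1*, *Rasgrf2*, *Rasgrp1* and *Rasgrp2*, the GTPase-activating protein *Rasal1* and the effector kinase *Braf*. They were picked by gene symbol and make up 9 of the 770 genes on the nCounter Mouse PanCancer Pathways panel, which counts RNA molecules with color-coded probes and without amplification. Other Ras genes of the panel were not analysed here.

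The 5 *RBS* lesions came from E18.5 embryos of the genotype Rax-creERT2::Ctnnb1(ex3)Fl/+SmoM2Fl/+ that had been exposed to tamoxifen at E8.5. The *Rax* promoter drives the inducible Cre recombinase in early retinal precursor cells, where recombination removes exon 3 of *Ctnnb1*, which stabilizes beta-catenin, and switches on SmoM2, a constitutively active form of Smoothened. The lesions take the place of most of the eye, so whole eyes with lesions were compared with whole eyes. The 4 control eyes came from E18.5 embryos with the genotype Ctnnb1(ex3)Fl/+SmoM2Fl/+, which carry both floxed alleles but no Cre, and the labels name no tamoxifen for them. The 3 Shh-MBs, medulloblastomas with activated Sonic hedgehog signaling, came from the hindbrain of hGFAP-cre::SmoM2Fl/+ mice aged 14 days. In those mice a human *GFAP* promoter drives Cre and *Ctnnb1* is unaltered, so that Shh-MBs differ from the eyes in organ, age and driver at once. The SmoM2 allele was present in all 12 animals and was recombined in the *RBS* and Shh-MB groups. Each sample was a single lesion, eye or tumor of its own animal, and sex is not in the labels.

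Ras is on while it holds GTP and off while it holds GDP. Exchange factors load it with GTP, GTPase-activating proteins speed its return to GDP, and GTP-bound Ras recruits Raf kinases, which start the MEK and ERK cascade. *Rasgrf1* and *Rasgrf2* encode exchange factors that respond to calcium and calmodulin and are best known from neurons. *Rasgrp1* and *Rasgrp2* encode exchange factors that bind diacylglycerol or respond to calcium and are best known from lymphocytes and platelets. RNA levels do not show on which GTPases these factors act. *Rasal1* encodes a GTPase-activating protein that is brought to the membrane by calcium.

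Values are the normalized signal as deposited, on a linear scale. From the low values it was inferred, as the sources used here do not give the background setting, that a background level was subtracted. Each sample would then be multiplied by one factor. A gene with no signal above that level is taken to be listed at the lowest value of its sample. Low values lie on evenly spaced steps, and dividing a sample's summed signal by its step gave a depth of 335392 to 716684 counts above background per sample. The *RBS* lesions spanned 335392 to 637795, the control eyes 590200 to 716684 and the Shh-MBs 541092 to 707210. One step was worth 0.81 to 1.64 units of signal, so that a value of a few units rests on a few counted molecules. The lesions held the shallowest sample, and the share of the 3 most abundant genes was 26.9 to 29.7% in the lesions, 42.8 to 50.9% in control eyes and 50.0 to 51.9% in Shh-MBs.

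The labelled tissues could be checked by few markers, because the panel holds few genes of eye or cerebellum. *Fgf15*, a gene of the embryonic retina, ran from 835 to 1094 in control eyes, from 74.6 to 152 in the lesions and from 1.00 to 4.87 in the tumors. *Zic2* and *Gli1*, which stood for cerebellar granule cells, summed to 1165 to 1355 in Shh-MBs and to 328 to 465 over all 9 eyes. *Gli1*, a target of hedgehog signaling, ran from 47.9 to 79.6 in the lesions and from 99.1 to 118 in control eyes. It was lower in the lesions, where Cre switches *SmoM2* on (log2 difference -0.67, limma adjusted p = 0.0056). This is a single gene, and the authors reported the panel's Shh gene set as enriched in *RBS* lesions over control eyes. The cause of the lower *Gli1* was not tested. Shh-MB 1 stood apart from Shh-MB 2 and Shh-MB 3. Its 8 neuron markers summed to 2005, against 1339 and 1272. It was also the one Shh-MB with *Rasgrf1*, *Rasgrf2* and *Rasal1* above the lowest value, so results on Shh-MBs are given with and without it where it matters.

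On mouse assembly GRCm38.p6 the genes are spread over the genome. *Hras* lies at chr7:141189934-141194019, *Rras2* at chr7:114046782-114117781, *Nras* at chr3:103058285-103067914, *Braf* at chr6:39603231-39725658, *Rasgrf1* at chr9:89909508-90026979, *Rasgrf2* at chr13:91880407-92131828, *Rasgrp1* at chr2:117279983-117342877, *Rasgrp2* at chr19:6398957-6415216 and *Rasal1* at chr5:120648040-120679597. The promoters of *Hras*, *Rras2* and *Rasgrf2* are shown, because these 3 genes had the same order of levels over the 3 groups on the deposited scale. Levels were lowest in Shh-MBs and highest in *RBS* lesions, with no overlap. Each line gives the 250 bases before the transcription start in the RefSeq tables for GRCm38.p6, 5′ to 3′ on the minus strand, with CG dinucleotides in capitals. The windows are chr7:141194005-141194254, chr7:114117782-114118031 and chr13:92131829-92132078.
Hras: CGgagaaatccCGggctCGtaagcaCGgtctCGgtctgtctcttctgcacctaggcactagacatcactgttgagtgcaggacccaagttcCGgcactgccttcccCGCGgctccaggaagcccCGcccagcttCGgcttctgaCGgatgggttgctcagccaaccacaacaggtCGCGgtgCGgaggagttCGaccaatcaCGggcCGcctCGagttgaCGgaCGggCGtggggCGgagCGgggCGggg
Rras2: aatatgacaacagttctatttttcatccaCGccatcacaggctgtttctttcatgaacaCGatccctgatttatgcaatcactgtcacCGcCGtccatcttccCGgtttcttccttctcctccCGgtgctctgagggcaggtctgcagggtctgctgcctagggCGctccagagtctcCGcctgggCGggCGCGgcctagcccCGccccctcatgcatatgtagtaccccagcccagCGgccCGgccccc
Rasgrf2: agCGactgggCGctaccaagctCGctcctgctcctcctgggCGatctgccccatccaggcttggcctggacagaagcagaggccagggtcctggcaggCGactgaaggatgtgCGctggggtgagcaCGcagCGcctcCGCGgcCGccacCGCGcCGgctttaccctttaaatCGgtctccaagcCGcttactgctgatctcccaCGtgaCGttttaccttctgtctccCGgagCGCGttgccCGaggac

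The window of *Hras* holds 24 CG dinucleotides, that of *Rras2* holds 14 and that of *Rasgrf2* holds 22. Promoters were in the table for 8 of the 9 genes (*Rasal1* was not matched), with 9 windows and a median of 21 CG dinucleotides. The median was 15 over 754 windows of 568 panel genes and 6 over all 32851 windows. The letters CTTTGA or CTTTGT, which are bound by Tcf and Lef factors of the Wnt pathway, were sought on both strands. They occurred in 1 of the 9 windows, as CTTTGT in that of *Nras*, and in 22.4% of the panel windows and 27.6% of all windows. GACCACCCA, which is bound by Gli factors of the hedgehog pathway, occurred in none of the 9, in 0.133% of the panel windows and in 0.225% of all windows. These are letter matches in one window per start site and say nothing about binding.

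Between *RBS* lesions and control eyes, 6 of the 9 genes differed and each was higher in the lesions. These were *Hras*, *Rras2*, *Braf*, *Rasgrf1*, *Rasgrf2* and *Rasgrp1*, whereas *Nras*, *Rasgrp2* and *Rasal1* did not pass the test. The test was limma on log2 of the signal plus 1, with Benjamini-Hochberg adjustment over all 770 genes and a threshold of 0.05. Over the whole panel 51.2% of genes passed in either direction and 33.0% passed as higher in *RBS* lesions. In 4 of the 9 genes (*Hras*, *Rras2*, *Rasgrf2* and *Braf*) every lesion lay above every control eye, and the groups did not overlap in 43.4% of all genes. The median difference over all genes was 0.17 on the log2 scale, so that small rises have to be read against a general shift. In these bulk samples fewer cells of a type and less RNA per cell cannot be told apart.

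Between *RBS* lesions and Shh-MBs, 5 of the 9 genes differed, all of them higher in *RBS* lesions: *Hras*, *Rras2*, *Braf*, *Rasgrf2* and *Rasgrp2*. On the panel 60.8% of genes passed, and 48.1% passed as higher in *RBS* lesions. This direction depends on scaling: 370 genes were higher and 98 lower as deposited, 181 and 319 after centring each sample on its median, and 203 and 236 after quantile normalization. The same 5 genes did not overlap between the groups, as was so for 59.9% of all genes. Between Shh-MBs and control eyes, 4 genes differed, and *Hras*, *Rras2*, *Rasgrf2* and *Rasgrp2* were all lower in Shh-MBs. There the panel had 41.0% of genes past the threshold, 31.4% as lower in Shh-MBs, and 48.2% without overlap, against the same 4 of the 9 genes. Here too the split turned, from 74 higher and 242 lower as deposited to 311 and 139 after median centring and 223 and 149 after quantile normalization, and after centring 2 of the 9 genes passed as higher and 2 as lower. Between *RBS* lesions and control eyes it went from 254 higher and 140 lower to 177 and 177 after centring and 185 and 179 after quantile normalization. The 3 comparisons share their samples in pairs and are not independent of each other.

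**Figure D1:**
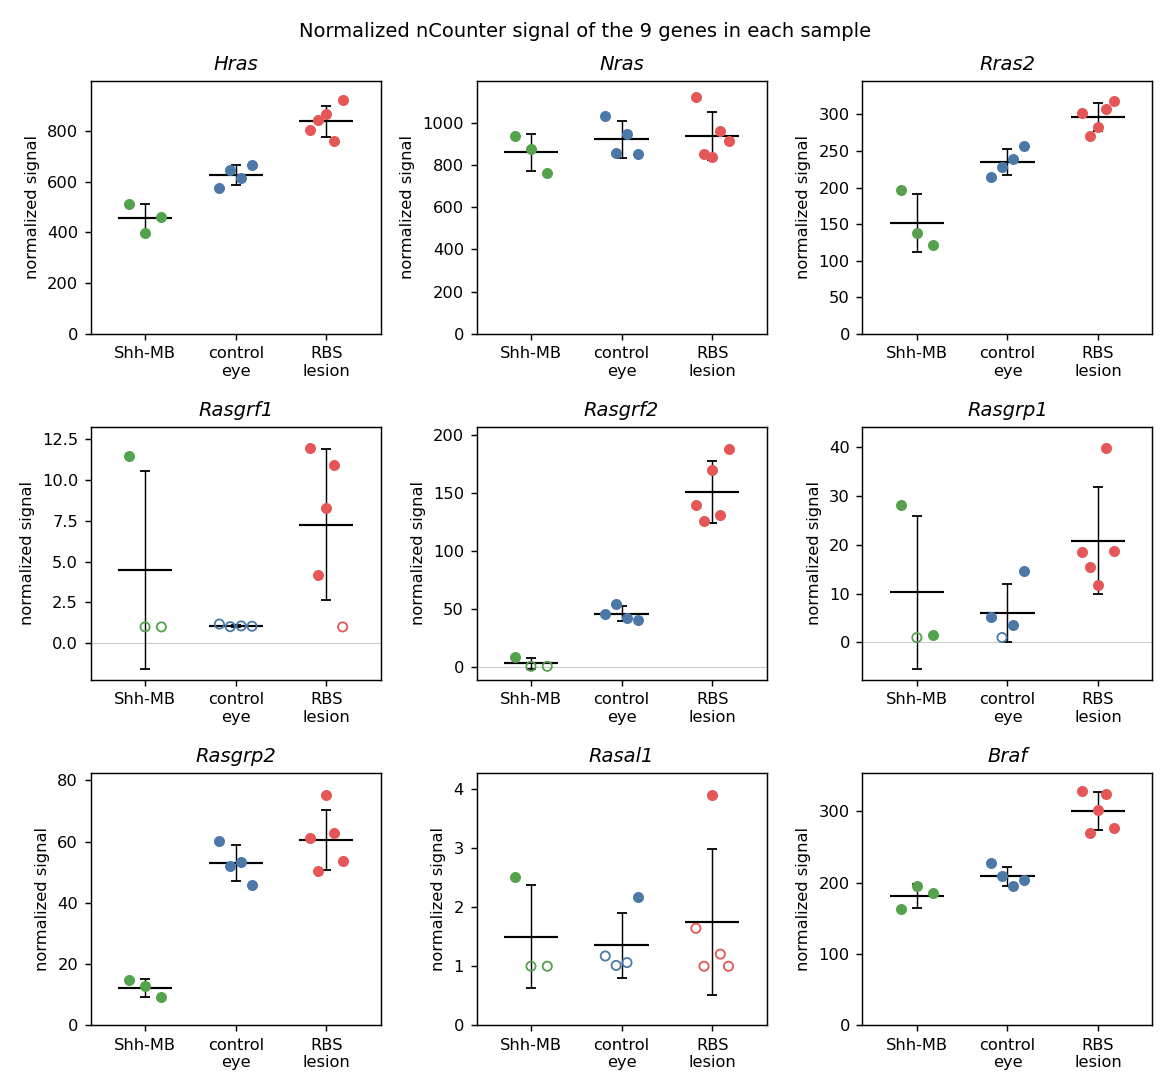
Normalized signal (linear scale, one axis per gene) of the 9 genes in 3 Shh-MBs, 4 control eyes and 5 *RBS* lesions. Points are single animals, open points are at the lowest value of their sample, horizontal lines are group means and bars are ± SD. On the deposited scale *Hras*, *Rras2* and *Rasgrf2* rise from Shh-MBs over control eyes to *RBS* lesions without overlap. *Nras* overlaps throughout, and *Rasal1* is mostly at the lowest value.

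*Hras* encodes a Ras GTPase found in nearly all cells. Its signal was 803, 841, 864, 761 and 922 in the *RBS* lesions, 574, 647, 613 and 667 in the control eyes and 511, 398 and 459 in the Shh-MBs. The lowest lesion stood above the highest control eye, and the lowest control eye stood above the highest Shh-MB. Means were 838 ± 61.3 (SD, n = 5), 625 ± 40.5 (SD, n = 4) and 456 ± 56.6 (SD, n = 3). *RBS* lesions exceeded control eyes by 0.42 on the log2 scale (SE 0.0884, limma adjusted p = 0.0035), which is 1.34-fold, and exceeded Shh-MBs by 0.88 (SE 0.117, limma adjusted p = 0.000277), which is 1.84-fold. Shh-MBs were 0.46 below control eyes (limma difference -0.46, SE 0.119, adjusted p = 0.0213). That call was lost without control eye 2, control eye 4, Shh-MB 2 or Shh-MB 3, when the limma adjusted p lay between 0.0527 and 0.0794.

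*Rras2* encodes TC21, a relative of the classical Ras proteins that shares many of their partners. Its signal was 302, 270, 283, 307 and 319 in *RBS* lesions, 214, 228, 239 and 257 in control eyes and 196, 137 and 121 in Shh-MBs. As with *Hras*, the 3 groups were fully separated, and Shh-MB 1 lay closest to the eyes. *RBS* lesions were higher than control eyes by 0.34 (SE 0.0890, limma adjusted p = 0.0115, 1.26-fold) and higher than Shh-MBs by 0.99 (SE 0.162, limma adjusted p = 0.000866, 1.99-fold). The difference between Shh-MBs and control eyes was -0.66 (SE 0.180, limma adjusted p = 0.026). The latter call was lost without Shh-MB 2, Shh-MB 3 or any of control eyes 2, 3 and 4 (limma adjusted p 0.057 to 0.0893), and the call against control eyes was lost with all 12 samples in one fit (limma adjusted p = 0.0554).

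*Nras* encodes the third Ras GTPase of the set. Its signal ran from 839 to 1123 in *RBS* lesions with a median of 915, from 851 to 1034 in control eyes and from 764 to 938 in Shh-MBs, and the 3 ranges overlapped. *RBS* lesions differed from control eyes by 0.02 on the log2 scale (95% interval -0.23 to 0.28, limma adjusted p = 0.881) and from Shh-MBs by 0.12 (95% interval -0.18 to 0.43, limma adjusted p = 0.439). Between Shh-MBs and control eyes the difference was -0.10 (95% interval -0.39 to 0.19, limma adjusted p = 0.555).

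The level of *Hras* relative to *Nras* within a sample does not depend on the factor by which a sample was multiplied. The comparison was chosen after the values had been seen and is given without a test. The log2 ratio of *Hras* to *Nras* ran from -0.48 to 0.04 in *RBS* lesions (median -0.02), from -0.85 to -0.35 in control eyes and from -1.14 to -0.74 in Shh-MBs. That of *Rras2* to *Nras* ran from -1.89 to -1.52 in *RBS* lesions, from -2.27 to -1.73 in control eyes and from -2.67 to -2.26 in Shh-MBs. In both ratios *RBS* lesions stood clear of Shh-MBs, while neighboring groups otherwise overlapped. As the probes differ between genes, the ratios are read between samples and not as amounts of one gene against another.

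*Rasgrf2* was the one exchange factor whose 3 groups were fully separated. Its signal was 140, 126, 170, 131 and 188 in *RBS* lesions and 46.3, 55.1, 42.8 and 40.7 in control eyes. In Shh-MB 1 it was 9.22, and in Shh-MB 2 and Shh-MB 3 it was at the lowest value. Every lesion thus had more than any control eye, and every control eye more than any Shh-MB.

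*RBS* lesions exceeded control eyes in *Rasgrf2* by 1.68 on the log2 scale (SE 0.148, limma adjusted p = 2.8e-05), a 3.21-fold difference of the mean log2 values, which ranked 60 in size among the 770 genes. *RBS* lesions exceeded Shh-MBs by 5.45 (SE 0.524, limma adjusted p = 5.1e-05), and Shh-MBs differed from control eyes by -3.77 (SE 0.586, limma adjusted p = 0.00225). The differences from Shh-MBs rest in part on the lowest value, which holds 2 of the 3 tumors. With values below 20 set to 20 they were 2.90 and -1.20, and with 5 added in place of 1 they were 4.27 and -2.67, all past the threshold. Without Shh-MB 1 both remaining tumors are at that value, and the differences were 6.23 (limma adjusted p = 1.39e-06) and -4.55 (limma adjusted p = 2.73e-05). Those values depend on the 1 added before the log2 step.

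*Rasgrf1*, the close relative of *Rasgrf2*, was near the limit of detection. All 4 control eyes were at the lowest value, from 1.01 to 1.17. The *RBS* lesions had 11.95, 4.16, 8.31, 10.9 and, in *RBS* 5, the lowest value, and Shh-MB 1 had 11.5 while the other Shh-MBs were at the lowest value. Signal was therefore present in 4 of 5 lesions, 0 of 4 control eyes and 1 of 3 tumors. The signals in the lesions amount to about 3.90 to 8.29 steps above the lowest value. The limma difference between *RBS* lesions and control eyes was 1.72 (SE 0.507, adjusted p = 0.019) and depends on the value of 1 that was added, so no fold is given. With values below 20 set to 20 nothing was left to compare, and the exact permutation test over the 9 eyes gave p = 0.0476 before adjustment and 0.0894 after it. Against Shh-MBs the difference was 0.89 (95% interval -0.99 to 2.77, limma adjusted p = 0.375), and without Shh-MB 1 it was 1.77 (limma adjusted p = 0.0673).

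*Rasgrp1* was also low. Its signal was 18.52, 15.49, 11.8, 39.8 and 18.8 in *RBS* lesions and 5.23, 1.01, 3.53 and 14.7 in control eyes, with 1.01 as the lowest value of control eye 2. In Shh-MBs it was 28.3, 1.00 and 1.48. The top control eye lay above the bottom lesion, and *RBS* 4 lay far above the other lesions. *RBS* lesions differed from control eyes by 1.88 (SE 0.556, limma adjusted p = 0.019, exact permutation p = 0.0159), but without control eye 3 the adjusted p was 0.05003, with all 12 samples in one fit it was 0.0739, and with values below 20 set to 20 the difference was 0.20 (adjusted p = 0.556). Against Shh-MBs the difference was 1.94 (95% interval -0.05 to 3.93, limma adjusted p = 0.0815). This value turned on Shh-MB 1, without which it was 3.18 (limma adjusted p = 0.000456).

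*Rasgrp2* separated the eyes from the tumors rather than the lesions from the eyes. Its signal was 61.2, 50.3, 75.3, 62.7 and 53.5 in *RBS* lesions, 60.4, 52.1, 53.5 and 45.9 in control eyes and 14.8, 12.7 and 9.12 in Shh-MBs. The ranges of lesions and control eyes overlapped, and all 9 eyes lay above all tumors. *RBS* lesions and control eyes differed by 0.18 (95% interval -0.12 to 0.49, limma adjusted p = 0.291). *RBS* lesions exceeded Shh-MBs by 2.23 (SE 0.185, limma adjusted p = 2.5e-05, 4.70-fold), and Shh-MBs lay 4.13-fold below control eyes (difference -2.05, SE 0.179, limma adjusted p = 0.000163).

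*Rasal1*, the counteracting member, was at the lowest value in 3 of 4 control eyes, 4 of 5 *RBS* lesions and 2 of 3 Shh-MBs. The other values were 2.17 in control eye 4, 3.90 in *RBS* 3 and 2.51 in Shh-MB 1. No difference passed the test on the deposited scale, with limma adjusted p of 0.666, 0.826 and 0.879 in the 3 comparisons. After median centring it passed as higher in Shh-MBs than in control eyes (0.73, limma adjusted p = 0.018), although most of its values are at the lowest level.

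*Braf* encodes a Raf kinase that Ras-GTP recruits to the membrane. Its signal was 329, 270, 301, 324 and 276 in *RBS* lesions, 227, 209, 195 and 204 in control eyes and 163, 195 and 186 in Shh-MBs. The lesions stood above all other samples, while control eyes and Shh-MBs met at their edges, with 194.7 as the lowest control eye and 195.4 as the highest tumor. *RBS* lesions exceeded control eyes by 0.52 (SE 0.0945, limma adjusted p = 0.00159, 1.43-fold) and Shh-MBs by 0.72 (SE 0.115, limma adjusted p = 0.000771, 1.65-fold). Shh-MBs and control eyes differed by -0.21 (95% interval -0.46 to 0.05, limma adjusted p = 0.178).

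**Figure D2:**
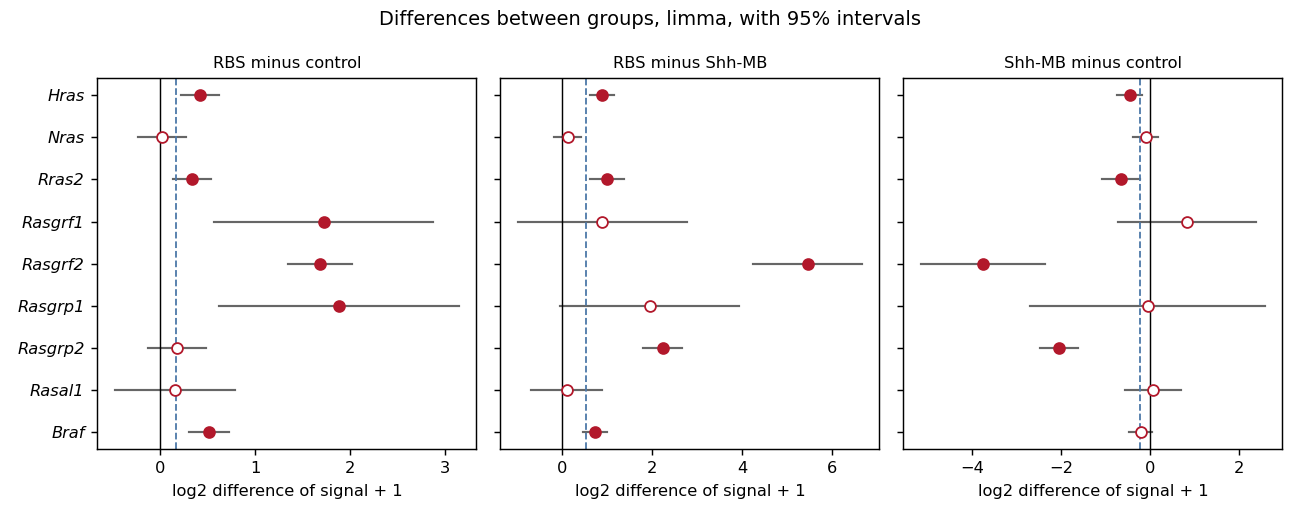
Differences in mean log2 of signal plus 1 for the 9 genes in the 3 comparisons, with 95% intervals from limma. Filled points passed an adjusted p of 0.05, and the dashed line is the median of all 770 genes (0.17, 0.53 and -0.22). *Rasgrf2* lies far from that line in each comparison, whereas *Hras* and *Rras2* lie much closer to it.

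On the deposited scale the order Shh-MB, control eye, *RBS* lesion held without overlap in *Hras*, *Rras2* and *Rasgrf2*, which is 3 of the 9 genes. It held in 8.83% of all genes of the panel (68 of 770). For *Hras* and *Rras2* the step from Shh-MBs to control eyes was not called under the other scalings. For comparisons of single values, an exact permutation test cannot give less than 0.00794 with 5 against 4 samples, 0.0179 with 5 against 3 and 0.0286 with 3 against 4. Those of the 9 genes that did not overlap in a comparison reached that smallest value there.

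The calls on *Hras*, *Rras2* and *Braf* depend on scaling. With each sample centred on its own median log2 value, the deposited differences minus the centred ones were 0.18 for *RBS* lesions against control eyes, 0.85 for *RBS* lesions against Shh-MBs and -0.67 for Shh-MBs against control eyes, so that centring lowered the first and second and raised the last. After centring, *Rasgrf2* kept its calls in all 3 comparisons (1.501, 4.602 and -3.10), and *Rasgrp2* kept both of its calls (1.39 and -1.38). Quantile normalization cut the differences of *Rasgrp2* to 0.77 and -0.77, which still passed (limma adjusted p 0.00749 and 0.0286). *Braf* remained higher in lesions than in control eyes (0.34, limma adjusted p = 0.0104). *Hras* fell back to 0.24 (limma adjusted p = 0.0917) and *Rras2* to 0.16 (limma adjusted p = 0.21) in that comparison. Quantile normalization gave 0.21 for *Hras* (limma adjusted p = 0.0964) and 0.16 for *Rras2* (limma adjusted p = 0.104) there, and *Braf* still passed (0.37, limma adjusted p = 0.00416).

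Against Shh-MBs, centring left a difference of 0.04 for *Hras*, 0.15 for *Rras2* and -0.12 for *Braf*, none of which passed the test. With quantile normalization *Hras* (0.40, limma adjusted p = 0.0121) and *Rras2* (0.42, limma adjusted p = 0.02) still passed there and *Braf* did not (0.19, limma adjusted p = 0.215). With the sum of all but the 3 most abundant genes as scale *Hras* (0.50), *Rras2* (0.61) and *Braf* (0.34) all passed (limma adjusted p 0.009, 0.0092 and 0.0307). After centring *Nras* passed as lower in *RBS* lesions than in Shh-MBs (-0.72, limma adjusted p = 0.00166) and as higher in Shh-MBs than in control eyes (0.56, limma adjusted p = 0.0124). Between Shh-MBs and control eyes *Hras* turned to 0.21 and *Rras2* to 0.01. Scaling to the summed signal of all but the 3 most abundant genes gave values between these and the deposited ones for all 3 Ras GTPases in all 3 comparisons.

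**Figure D3:**
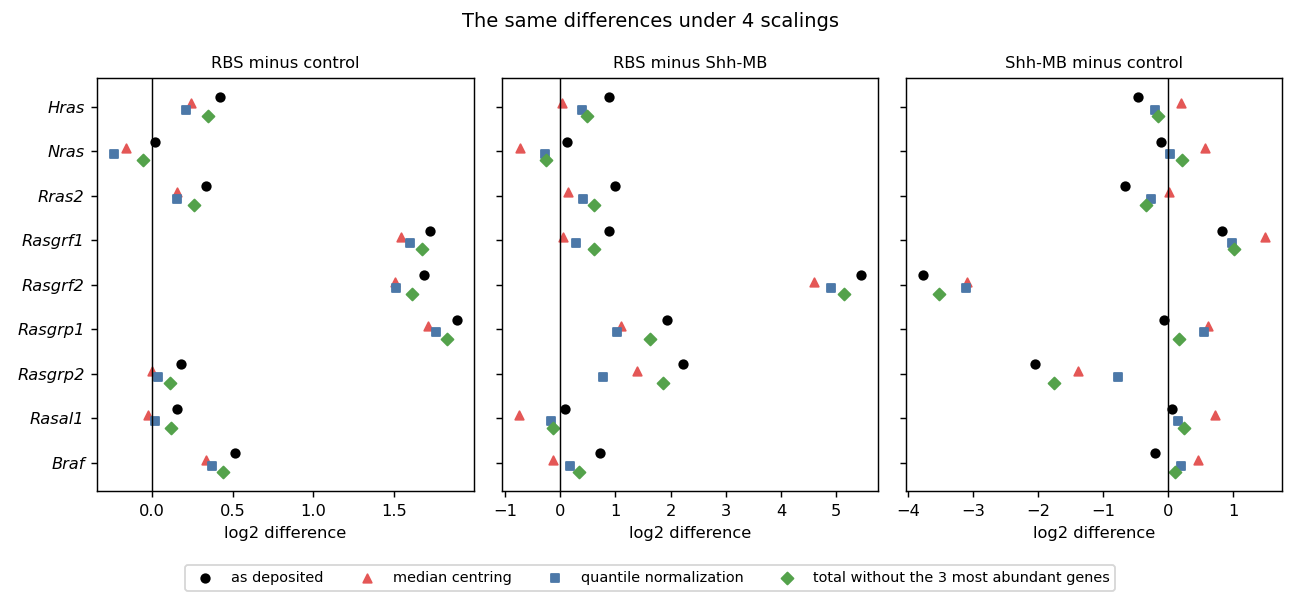
Log2 differences of the 9 genes in the 3 comparisons under 4 scalings of the samples: as deposited, centred on each sample's median, quantile normalized, and scaled to the sum of all but the 3 most abundant genes. *Rasgrf2* keeps its sign in every comparison under all 4, while *Nras* changes sign in each comparison and *Hras*, *Rras2* and *Braf* change sign between Shh-MBs and control eyes under median centring.

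Other genes of the Ras pathway on the panel were read from lists. Among adaptors and Sos exchange factors, which link receptor tyrosine kinases to Ras, 5 of 9 genes were higher in the lesions than in control eyes and 1 was lower, with a median difference of 0.42 against 0.17 over all genes. The panel shares to set beside this and the next lists are 33.0% higher and 51.2% in either direction. For *RBS* lesions against Shh-MBs they are 48.1% higher and 60.8% in either direction, and for Shh-MBs against control eyes 31.4% lower and 41.0% in either direction. *Shc3*, a neuronal adaptor, rose from 66.1 ± 7.42 (SD, n = 4) to 378 ± 61.6 (SD, n = 5), a difference of 2.49 (limma adjusted p = 3.2e-06). *Sos1*, the exchange factor used by most growth factor receptors, rose by 0.93 (limma adjusted p = 3.3e-05), and *Grb2*, its adaptor, rose by 0.74 (limma adjusted p = 0.000165). *Shc1*, the widely expressed relative of *Shc3*, was lower by 0.58 (difference -0.58, limma adjusted p = 0.00966), with ranges that overlapped. Against Shh-MBs the same list had 5 genes higher and 1 lower in *RBS* lesions, and between Shh-MBs and control eyes 1 higher and 2 lower. These counts against Shh-MBs, and those of the next lists, hold for the deposited scale. After median centring *Shc1* and *Shc3* stayed higher in *RBS* lesions than in Shh-MBs, while *Shc2*, *Shc4*, *Ptpn11* and *Lat* passed as lower. Between Shh-MBs and control eyes most of the list then passed as higher in Shh-MBs, and *Shc1* stayed lower. *Sos1* was 0.78 there (limma adjusted p = 0.00144) and *Grb2* 0.52 (limma adjusted p = 0.0152).

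Of the other GTPase-activating proteins for Ras, the panel holds *Nf1* and *Rasa4*, and they moved in opposite directions between lesions and control eyes. *Nf1*, the tumor suppressor neurofibromin, had a mean of 541 ± 57.4 (SD, n = 5) in the lesions against 384 ± 58.5 (SD, n = 4) in control eyes, a difference of 0.50 (limma adjusted p = 0.0106). *Rasa4* fell from 78.6 ± 12.1 to 33.5 ± 7.44, a difference of -1.22 (limma adjusted p = 0.000332). The call on *Nf1* was lost after median centring (0.32, limma adjusted p = 0.0777). Both were lower in Shh-MBs than in either group of eyes on the deposited scale. After centring *Nf1* stood at 0.12 for Shh-MBs against control eyes and at 0.19 for *RBS* lesions against Shh-MBs, neither past the threshold. *Rasa4* kept both calls after centring, but with quantile normalization it lost that of *RBS* lesions against Shh-MBs (0.65, limma adjusted p = 0.129).

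Below Ras, 2 of 3 reported kinases of the MEK and ERK steps were higher in the lesions than in control eyes and none was lower, with a median difference of 0.34, where 33.0% of the panel was higher. *Mapk3*, which encodes ERK1, was 1039 ± 131 (SD, n = 5) in *RBS* lesions against 715 ± 46.4 (SD, n = 4) in control eyes, a difference of 0.53 (limma adjusted p = 0.00282). *Map2k2*, which encodes MEK2, rose by 0.34 (limma adjusted p = 0.00637), which was lost after median centring (0.16, limma adjusted p = 0.158). Against Shh-MBs all 3 kinases were higher in *RBS* lesions, as were 48.1% of all genes on the deposited scale, but after centring none of the 3 passed. Between Shh-MBs and control eyes 2 were lower and 1 did not pass on the deposited scale. After centring none passed as lower there, and *Mapk3* passed as higher in Shh-MBs (0.41, limma adjusted p = 0.0183).

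Of 7 genes for Rac GTPases and other effectors of Ras, none of which encodes a Ral or Rap GTPase, 5 were higher in the lesions than in control eyes and 1 was lower, with a median difference of 1.19 (panel: 33.0% higher, 51.2% in either direction). *Rac3*, a Rac GTPase of neurons, was 568 ± 77.5 in *RBS* lesions, 222 ± 16.0 in control eyes and 52.6 ± 10.1 in Shh-MBs, an order like that of *Rasgrf2* and without overlap. *Pld1*, a phospholipase D, and *Plce1*, a phospholipase C that binds Ras, rose by 1.32 (limma adjusted p = 0.00317) and 1.25 (limma adjusted p = 0.000134). *Tiam1*, an exchange factor for Rac, fell in the lesions (difference -0.62, limma adjusted p = 0.000354).

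Rasgrf and Rasgrp factors respond to calcium and diacylglycerol, and a list of NMDA receptor subunits, a phospholipase C and protein kinases C had a median difference of 1.03, with 4 of 6 genes higher and none lower in lesions than in control eyes, where 33.0% of the panel was higher. *Grin2b* and *Grin1* encode subunits of the NMDA receptor, a calcium channel gated by glutamate. *Grin2b* was 287 ± 34.9 in *RBS* lesions and 31.4 ± 10.1 in control eyes (difference 3.21, limma adjusted p = 6.8e-06), and *Grin1* was 48.6 ± 15.5 and 9.27 ± 3.79 (difference 2.30, limma adjusted p = 0.000408). *Prkca*, a protein kinase C that diacylglycerol activates and that does not itself supply either signal, was 309 ± 14.7 and 110 ± 7.64 (difference 1.48, limma adjusted p = 3.1e-06). Against Shh-MBs 2 genes of this list were higher in *RBS* lesions and 1 was lower, where 48.1% of the panel was higher and 60.8% passed either way. In Shh-MBs against control eyes 3 were higher and none lower, where 41.0% of the panel passed either way.

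A list of ERK feedback and target genes did not move one way. Of 11, 4 were higher and 4 lower in lesions than in control eyes, and the median difference was 0.25. After median centring *Spry1* lost its call as higher (0.17, limma adjusted p = 0.201) and *Spry4* passed as lower (-0.45, limma adjusted p = 0.00671). *Dusp4* and *Dusp8*, which encode MAP kinase phosphatases, rose by 1.76 (limma adjusted p = 0.000516) and 1.38 (limma adjusted p = 0.000144), and *Fos*, an immediate early gene, rose by 1.22 (limma adjusted p = 0.00559). *Dusp6*, the phosphatase of ERK in the cytoplasm, fell by 0.61 (limma adjusted p = 0.00063), *Dusp5*, its counterpart in the nucleus, fell by 0.83 (limma adjusted p = 0.00403), and *Spry2*, an inhibitor of receptor signaling to Ras, fell by 0.79 (limma adjusted p = 0.000142). Against Shh-MBs 5 of the 11 were higher and 1 lower in *RBS* lesions on the deposited scale, a share near the 48.1% of the panel that was higher. After centring *Dusp4* and *Dusp8* stayed higher and *Dusp5* stayed lower in *RBS* lesions. *Dusp6*, *Spry2*, *Spry4*, *Etv1* and *Etv4* then passed as lower too. In Shh-MBs against control eyes 1 was higher and 3 lower on the deposited scale, near the 31.4% of the panel that was lower. After centring none of the list passed as lower there, and *Dusp5*, *Dusp8*, *Etv1* and *Fos* passed as higher in Shh-MBs.

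**Figure D4:**
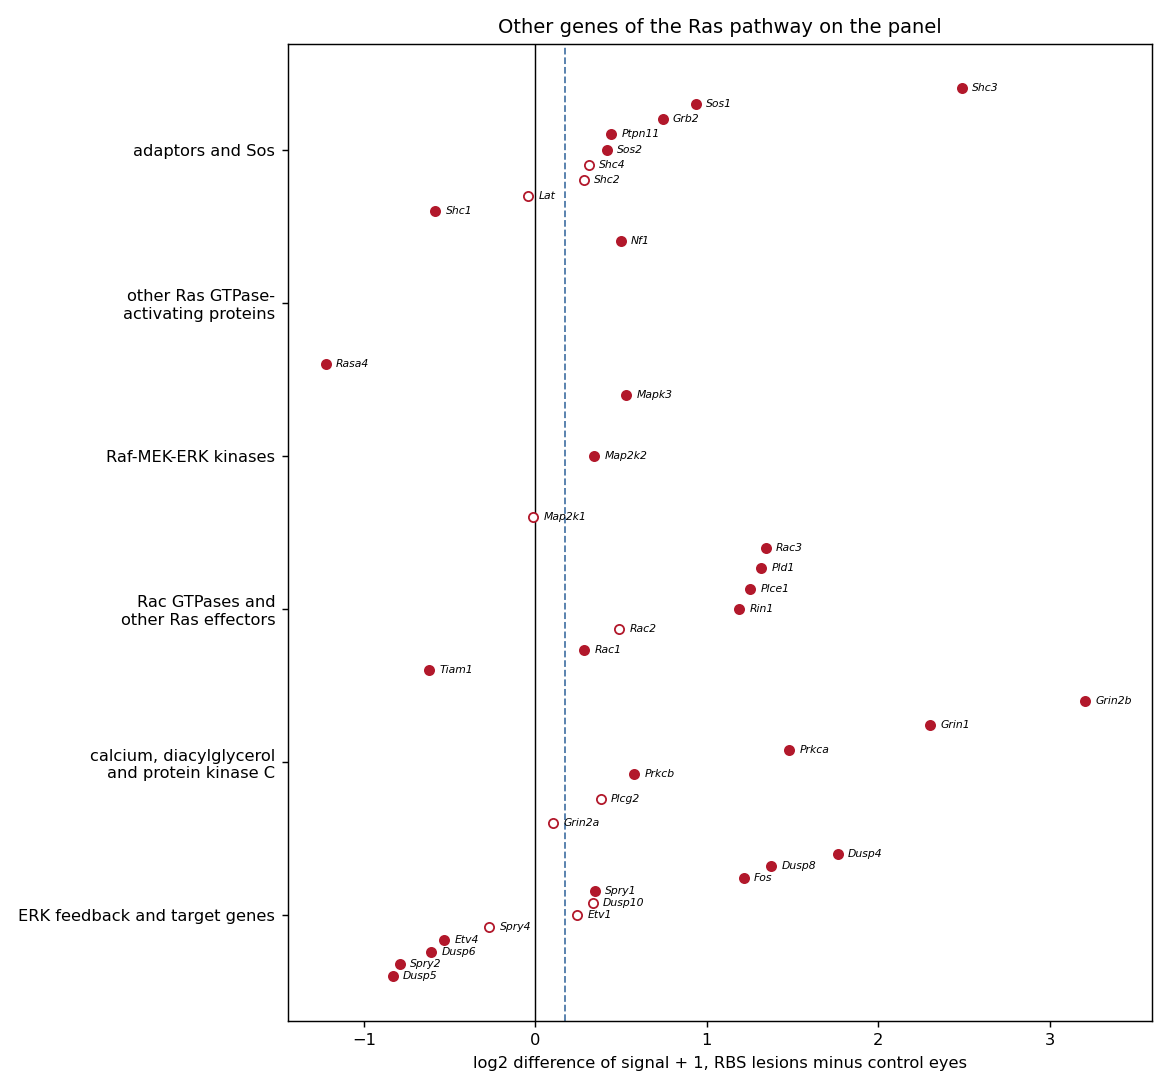
Log2 differences of signal plus 1, *RBS* lesions minus control eyes, for other Ras pathway genes of the panel in 6 lists. Filled points passed an adjusted p of 0.05 in limma, and the dashed line is the median of all genes, 0.17. Genes of calcium, diacylglycerol and protein kinase C lie mostly to the right, up to 3.21 for *Grin2b*, and ERK feedback and target genes lie on both sides.

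Marker lists of cell types were read beside these genes. Of 8 neuron markers on the panel, 7 were higher and 1 lower in lesions than in control eyes. Of the whole panel, 33.0% was higher and 51.2% passed either way. The neuron markers include *Grin1* and *Grin2b*. Their summed signal was 3239 to 4198 in *RBS* lesions, 1113 to 1242 in control eyes and 1272 to 2005 in Shh-MBs, and none was at the lowest value in a whole group. *Mapt* made up much of these sums in the eyes, since it alone ran from 1789 to 2431 in the lesions and from 522 to 653 in controls. *RBS* lesions thus exceeded control eyes both in neuron markers and in *Rasgrf1*, *Rasgrf2* and *Rasgrp1*. Between Shh-MBs and control eyes the neuron markers went both ways, with 5 higher and 2 lower and a median difference of 0.96, where 41.0% of the panel passed either way and the median of all genes was -0.22. *Cacna1e*, a calcium channel subunit, was the furthest higher (difference 2.91, limma adjusted p = 0.000148). *Ret*, a receptor tyrosine kinase (difference -1.69, limma adjusted p = 0.00718), and *Mapt*, which encodes the microtubule protein tau (difference -1.02, limma adjusted p = 0.00317), were lower, *Mapt* no longer so after median centring (-0.36, limma adjusted p = 0.125). The part of neurons in the results was not tested.

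Lymphocyte and platelet markers, 7 on the panel, summed to 43.6 to 59.1 in *RBS* lesions, 47.4 to 72.3 in control eyes and 44.2 to 62.4 in Shh-MBs, and *Il2rb* was at the lowest value in every lesion and tumor. Beside 33.0% of the panel, 1 of the 7 was higher in lesions than in control eyes. It was *Il7r*, a receptor of lymphocytes (difference 1.29, limma adjusted p = 0.00606), with at most 7.42 in any lesion. *Itgb3*, at 17.1 to 45.6, made up much of the sums, which therefore say little about lymphocytes, and their part in *Rasgrp1* and *Rasgrp2* was not tested. Of the 8 myeloid markers 3 were higher and none lower in lesions than in control eyes (panel: 33.0% higher). They summed to 254 to 368 in *RBS* lesions, 138 to 227 in control eyes and 154 to 282 in Shh-MBs, with Shh-MB 1 the highest tumor. The 4 endothelial markers summed to 709 to 1012, 1812 to 2271 and 138 to 256 in the same order. Between lesions and control eyes 1 of them passed, *Kdr*, a receptor for vascular endothelial growth factor (difference -1.49, limma adjusted p = 4.3e-05), and the median difference of the 4 was 0.17. Of the 7 mesenchyme markers 2 were lower and none higher in lesions than in control eyes, where 51.2% of the panel passed either way. Their signals summed to 19840 to 36410, 25550 to 57830 and 1475 to 2099 in that order. *Pdgfra*, a growth factor receptor in this list, went the other way and was higher in Shh-MBs than in control eyes (difference 1.53, limma adjusted p = 0.00505). Their part in the results, *Rasgrp2* in Shh-MBs among them, was not tested.

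The genes with the most similar pattern were sought over the 12 samples, by the root mean square difference of log2 values after each gene had been centred on its mean. Candidates were the 591 genes without any value at the lowest level. *Tsc2* (0.100) and *Ifnar1* (0.113) came closest to *Hras*, and *Spry1* (0.109) and *Sos2* (0.136) to *Rras2*. *Braf* was most like *Mllt4* (0.103) and *Smad1* (0.113), and *Nras*, which itself varied by 0.142 about its mean, was most like *Axin1* (0.114) and *Dnmt1* (0.120). *Pik3r1* (0.152) and *Bcor* (0.247) were closest to *Rasgrp2*. *Rasgrf2*, which varied by 2.24 about its mean, was nearest to *Ptpn5* (0.426) and *Gng4* (0.590). For the low genes the nearest were *Fos* (0.676) and *Csf1r* (0.724) for *Rasgrf1*, *Fgfr3* (0.7097) and *Cacna1g* (0.738) for *Rasgrp1*, and *Pla2g4c* (0.318) and *Sdha* (0.351) for *Rasal1*. The samples share tissue and group, so likeness here describes these 12 samples alone.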

How the data were processed

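RNA from fresh frozen tissue was run on the nCounter SPRINT Profiler, and the authors compiled and normalized the counts with the nSolver software and its Advanced Analysis module. Values were deposited as normalized signal on a linear scale, before any log2 step. The background setting and the reference genes are not given in the sources used here. Of 770 symbols, 760 matched the RefSeq table of GRCm38.p6 directly.

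Each comparison of 2 groups was fitted in limma 3.58.1 (R 4.3.3) on log2 of the signal plus 1, without a filter (two-sided, Benjamini-Hochberg over 770 genes, threshold 0.05). The steps were tested on simulated data. Intervals are 95% intervals. Plots came from Python 3.11.15 with matplotlib 3.10.9. Replicates were separate animals.

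All 9 genes were named. From each pathway list, up to 3 genes per direction were named, those with the largest differences between *RBS* lesions and control eyes past the threshold and a group mean of at least 20; the 2 most similar genes were named for each member. The genes, lists and tests were chosen with earlier results of these data known. Marker lists came from general knowledge, and some genes of the lists are not reported here.

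Alternatives were the methods' t-test (here without the permutation step that the methods name, and adjusted by step-down Bonferroni or, as an addition, by Benjamini-Hochberg), an exact permutation test, a robust limma fit with a trend, a limma fit of all 12 samples, median centring, quantile normalization, the summed signal of all but the 3 most abundant genes as scale, a pseudocount of 5, leaving out genes with a mean below 20, setting values below 20 to 20, a replicate block and leaving out each sample in turn.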

Additional observations from a re-analysis of the deposited data

Results flagged for a closer look

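Of 18 groups of 4 or 5 samples, 3 held a sample far from the others by Dixon's test, which marks about 1 in 20 groups by chance. *Rasgrp1* was 39.8 in *RBS* 4, and its gap to the next lesion was 0.752 of the group's range. *Rasal1* was 2.17 in control eye 4 (gap 0.863 of the range) and 3.90 in *RBS* 3 (gap 0.779 of the range), in groups where the other samples were at the lowest value.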

How the results depend on the processing

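Of the results for single genes under other settings, 436 kept their direction and side of the threshold, 53 kept their direction but lost the threshold, 2 kept it and gained the threshold, and 39 changed sign, some of which then passed (*Nras* after centring among them). *Rasgrf1*, *Rasgrp1* and *Rasal1* rest on few counts, which limits what their values can show. They gave no value where genes with a mean below 20 were left out, nor did *Rasgrf2* between Shh-MBs and control eyes. The causes were not tested.

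For *RBS* lesions against control eyes, the methods' t-test with step-down Bonferroni adjustment passed 1 of the 9 genes (72 of all genes), in place of 6 (394). For *RBS* lesions against Shh-MBs it passed 0 (80), in place of 5 (468), with 5 at an unadjusted p below 0.05, and median centring passed 3. For Shh-MBs against control eyes it passed 0 (36), in place of 4 (316), with 3 at an unadjusted p below 0.05, and 1 with Benjamini-Hochberg adjustment. There exact permutation passed 0 of the 9 and 0 of all genes, since its smallest p does not survive adjustment, with 4 at an unadjusted p below 0.05. Quantile normalization and the total without the 3 most abundant genes each passed 2. Leaving out each sample passed 2 to 4, with 2 left without control eye 2, control eye 4, Shh-MB 2 or Shh-MB 3.

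The replicate numbers do not pair the samples. Correlations of deviations between equal numbers ran from -0.31 to 0.43, and 2 of 4 pairs of *RBS* lesions and control eyes and 1 of 3 pairs in the other comparisons were closest to their own number. With the replicate number as a block, 2 genes passed for Shh-MBs against control eyes and *Rasgrp1* stood at 0.45. *Rras2* lost its call for *RBS* lesions against control eyes (0.31, limma adjusted p = 0.0757).

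Sign changes between *RBS* lesions and control eyes were -0.16 for *Nras* and -0.022 for *Rasal1* with median centring, and for *Nras* also -0.23 with quantile normalization and -0.052 with the total. Leaving out samples gave -0.044 to 0.079 for *Nras* and -0.074 to 0.31 for *Rasal1*. Against Shh-MBs, median centring, quantile normalization and the total gave -0.72, -0.28 and -0.26 for *Nras* and -0.75, -0.17 and -0.13 for *Rasal1*, median centring gave -0.12 for *Braf*, and leaving out samples gave -0.13 to 0.37 for *Rasal1*. Between Shh-MBs and control eyes the 3 scalings gave 0.56, 0.030 and 0.21 for *Nras*, 0.46, 0.20 and 0.11 for *Braf* and 0.61, 0.56 and 0.17 for *Rasgrp1*. Median centring gave 0.21 for *Hras* and 0.011 for *Rras2*. A pseudocount of 5 gave 0.11 for *Rasgrp1*, and values below 20 set to 20 gave 0.17. Leaving out samples gave -0.051 to 1.27 for *Rasgrf1*, -1.29 to 0.64 for *Rasgrp1* and -0.21 to 0.21 for *Rasal1*.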
